A study of Mus musculus with 2 samples.

Results

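Usp genes encode the ubiquitin-specific proteases, the largest family of deubiquitinases. The members described here are the genes whose symbol is Usp followed by a number and, in some, a suffix. Of the 36227 genes in the deposited table, 58 matched. Of these, 52 had at least 1 count in 1 library, and 42 averaged 20 counts or more per library, the floor used for ratios. A symbol is not an activity: Usp46os1 and Usp46os2 are antisense RNAs of the Usp46 locus, and Usp6nl encodes a GTPase-activating protein of vesicle traffic. Usp39 encodes a splicing factor that is not known as an active protease.

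RNA was measured in mature mouse oocytes at the second meiotic metaphase (MII stage), ovulated naturally by ICR females. The control library came from females of 3 months and the aging library from females of 12 months, here called young and aged. Each library was 1 pool of 18 oocytes, 3 from each of 6 females, lysed in 1 tube. With 1 library per age no difference has a replicate check, no test was run and no p-value is given. A difference in some oocytes of a pool and a smaller difference in all of them cannot be told apart.

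Ubiquitin is a small protein that is joined to other proteins by activating, conjugating and ligating enzymes, and chains of it often send the target to the proteasome. Deubiquitinases cut ubiquitin off again and so rescue, edit or recycle the target. The Usp enzymes are cysteine proteases, and each attacks the bond with a cysteine that lies in a short conserved stretch of the catalytic domain, the cysteine box. An MII oocyte makes almost no new RNA, so its mRNAs were stored during growth and are the source of its proteins until the embryonic genome is switched on.

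The cysteine box was looked for in the coding sequence of each member's longest transcript in GENCODE mouse release 21, after translation. The pattern was a glycine, any 4 residues, a glycine or alanine, any residue, a threonine, serine or tryptophan, and the cysteine. After it came an aromatic residue or a cysteine, any residue, and an asparagine, serine, alanine, valine or cysteine. It was found in 51 of the 58 members and in 61 of 22513 coding genes of the release (0.271%). Usp46 matched only a shorter pattern that left out the first glycine and its 4 neighbours. In that pattern the residue before the threonine, serine or tryptophan had to be asparagine, alanine, methionine, glycine or glutamine. With Usp46, 52 members, 37 of them above the floor, had a box. The 6 without one were Usp6nl, Usp39, Usp53, Usp54 and the antisense RNAs. No match says only that these letters are not in that transcript. The stretch of 30 bases around the codon of the cysteine, which is in capitals, is shown for the members furthest from equality between the ages and for the most abundant ones, to let the shared site be compared with their different ratios. The first 6 were higher in the aged library and the next 3 lower, and the last 2 were within 2-fold.
Usp1: aataaccttggcaacactTGTtatctgaat
Usp10: atcaataaaggaaactggTGCtacattaat
Usp26: cctaatgtgggaaacaccTGCtatataaat
Usp3: cgaaatttgggcaacactTGTttcatgaat
Usp32: agtaacctgggaaacacaTGCttcatgaac
Usp29: ccaaacttgggaaatactTGTtacatgaat
Usp5: cggaacctgggtaacagcTGCtatctcaac
Usp50: cggaacctgggcaacaccTGCtacatgaac
Usp20: aagaacctgggaaactccTGTtacatgaat
Usp28: aaaaatgttggcaacacaTGTtggttcagt
Usp46: aatatgtttggaaacacaTGCtactgtaac
The codon of the cysteine was TGC in 18 and TGT in 19 of the 37 members with a box above the floor, and both spellings occur among the higher and the lower members shown.

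Counts summed to 19475110 (young) and 18597656 (aged), and a count of 0 allowed up to 0.154 and 0.161 CPM (counts scaled to a common total). Ratios are aged over young after scaling to these totals. A gene is called higher or lower where its ratio reached 2-fold. The 95% intervals, given in brackets after a fold, are exact (Clopper-Pearson) and cover counting error only. On that scale the median of all 10211 genes above the floor was 0.43 (log2), so ratios relative to this median gene are given too. Of 14 oocyte marker genes, all had counts in both libraries, with summed levels of 178695 CPM young and 98438 CPM aged. Most of the sum came from Gdf9 (97099 and 42795 CPM) and H1foo (53502 and 39296 CPM). Of the 14, 4 had a ratio above 0 and 10 below, with 2 called higher, Dppa3 and Nlrp5, and 5 lower. Of 20 cumulus, granulosa and luteal markers, 6 had no count and 3 lay above the floor, and they summed to 31.5 CPM young and 64.4 CPM aged, mostly from Cyp19a1 (22.4 and 56.8 CPM). Without Cyp19a1 they summed to 9.09 and 7.58 CPM, with 4 markers higher in CPM and 9 lower in the aged library. Vim had 51 and 0 counts, Cyp11a1 27 and 1, and Inha 14 and 0. Nr5a2 went the other way with 38 and 106 counts, and Fshr with 0 and 16. Amh, Amhr2, Foxl2, Inhba, Lhcgr and Star had no counts. Among 9 matched markers of stroma, vessel and blood, 7 had counts and 2 lay above the floor, and they summed to 25.1 and 44.3 CPM, mostly from Pecam1 (19.6 and 38.9 CPM). The part of these cells in the Usp ratios was not tested.

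The family's summed counts were a larger share of the aged library, by about as much as the median gene was higher. All Usp members together had 36109 counts, 0.185% of the young library (95% exact binomial interval 0.184% to 0.187%), and 45088 counts, 0.242% of the aged one (0.240% to 0.245%). Usp28, Usp46 and Usp30, the most abundant members per kb, held 47.0% of the family's counts young and 35.3% aged. The remaining members rested on 982 CPM young and 1569 CPM aged, 1.60 times as much, while the whole family was 1.31 times and the median gene 1.34 times as high. Over totals without the 100 most abundant genes the family's share was 0.374% young and 0.401% aged.

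Of the 42 members above the floor, 15 were called higher with age and 3 lower, 35.7% and 7.14% of them. Over all genes above the floor 27.9% were called higher and 10.6% lower. The interval also lay beyond 2-fold for 9 higher and 2 lower members, against 18.0% and 6.35% of all genes. The members' median log2 ratio was 0.70, which is 0.28 relative to the median gene, and 73.8% of members had a ratio above 0 against 66.4% of all genes. Relative to the median gene, 7 members were 2-fold higher or more (16.0% of all genes) and 5 were lower (17.3% of all genes). A further scale took from each ratio the median of genes of like transcript length and GC content, and on it the members' median was 0.15, with 4 of 42 higher (13.6% of all genes) and 6 lower (14.9% of all genes). The share of higher members was above that of all genes on library totals, close to it on the median-gene scale and below it on the scale of like length and GC content. These shares over all genes, 27.9% higher and 10.6% lower on library totals, are the background for the counts in each group that follows, and the groups are small and share some members.

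**Figure D1:**
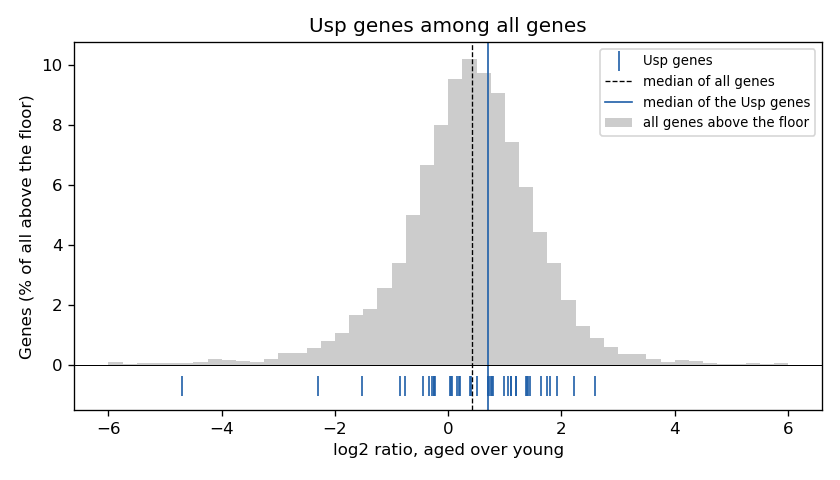
The grey bars give the share of all genes above the floor (vertical axis, %) by log2 ratio of aged over young (horizontal axis, values beyond 6 in either direction put in the end bars), and each blue tick is a Usp gene. The median of the Usp genes (blue line), at 0.70, lies to the right of the median of all genes (dashed line), at 0.43, and Usp5 and Usp50 lie far to the left.

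The members of DNA damage and replication held the highest ratio of the family and its most abundant gene. Usp1, which with its activator Wdr48 removes ubiquitin from the repair and replication proteins FANCD2 and PCNA, had 137 counts young and 790 aged, or 7.03 and 42.5 CPM. That is 6.04-fold higher (5.03 to 7.29), and 4.50-fold relative to the median gene. Usp28, an enzyme linked to the DNA damage checkpoint, had 8429 and 6597 counts, 433 and 355 CPM, and was 1.22-fold lower (1.18 to 1.26). The other 4 members of the group above the floor lay between these. Usp48 was 1.73-fold, Usp47 1.71-fold, Usp45 1.68-fold and Usp7, which stabilises p53 and its ligase Mdm2, 1.15-fold higher. Over the 6 the median log2 ratio was 0.76, and Usp1 was the 1 member called higher.

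Among the 8 members that act on histones and chromatin, 2 were called higher and 0 lower, with a median of 0.55, and that share of higher members lay near the 27.9% of all genes. Usp3, which removes ubiquitin from histone H2A, had 14.1 CPM young and 48.9 CPM aged (275 and 909 counts), 3.46-fold higher (3.02 to 3.98). Usp27x, with 43 and 106 counts, was 2.58-fold higher (1.80 to 3.77). Usp22, the ubiquitin protease of the SAGA co-activator complex, went the other way. It had 15.1 CPM young and 8.93 CPM aged, 1.69-fold lower (1.39 to 2.06), and 2.27-fold lower relative to the median gene. Usp51, a relative of Usp22 and Usp27x, lay just under the threshold at 1.99-fold higher (1.26 to 3.21) from 30 and 57 counts. The H2A protease Usp16 was 1.63-fold and Usp49 1.32-fold higher, while Usp21 was 1.26-fold and Usp36 1.17-fold lower. Usp16, with 196 and 305 counts, overlaps Cct8 on the other strand, which had more (528 and 3170). Usp49, with 669 and 843 counts, overlaps Gm20517 on the same strand, which had more counts (5494 and 9267). It also overlaps Tomm6 on the other strand (323 and 164 counts).

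The 3 enzymes of free ubiquitin chains and of the proteasome had 3 different outcomes. Usp5, also known as isopeptidase T, takes apart free chains that are not joined to a target. It had 82 counts young and 3 aged, 4.21 and 0.161 CPM, and was 26.1-fold lower with a wide interval (8.62 to 129). The aged count was as low as the level that a count of 0 allows. Usp13, its close relative, had 14.7 CPM young and 33.6 CPM aged and was 2.28-fold higher (1.98 to 2.64). Usp14, the deubiquitinase that docks on the proteasome and whose span overlaps Thoc1 (66 and 343 counts) on the other strand, had 37 and 50 counts, a fold of 1.42 with an interval from 0.907 to 2.23, and no difference was detectable for it at this depth.

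In the group of endosome and membrane traffic, 4 of 6 members were called higher and 1 lower, against 27.9% and 10.6% of all genes, and their median was 1.32. When set against the median gene 3 were higher, against 16.0% of all genes, since Usp6nl was then 1.70-fold higher. Usp10, which binds the stress granule protein G3BP1 and acts on sorting nexins and channels, had 8.68 CPM young and 40.6 CPM aged (169 and 755 counts), 4.68-fold higher (3.95 to 5.56). Usp32, a large membrane-associated member, had 10.6 and 35.4 CPM, 3.33-fold higher (2.85 to 3.92). Usp33, which acts on receptors and at the centrosome, had 7.14 and 19.4 CPM, 2.72-fold higher (2.23 to 3.33). Usp6nl was the weakest of the 4, at 2.28-fold (1.70 to 3.08). Usp20, which acts on receptors as Usp33 does, stood apart from them with 114 and 38 counts, 2.86-fold lower (1.97 to 4.25). The endosomal enzyme Usp8 had 50 counts at either age, a fold of 1.05 whose interval included equality (0.693 to 1.58).

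**Figure D2:**
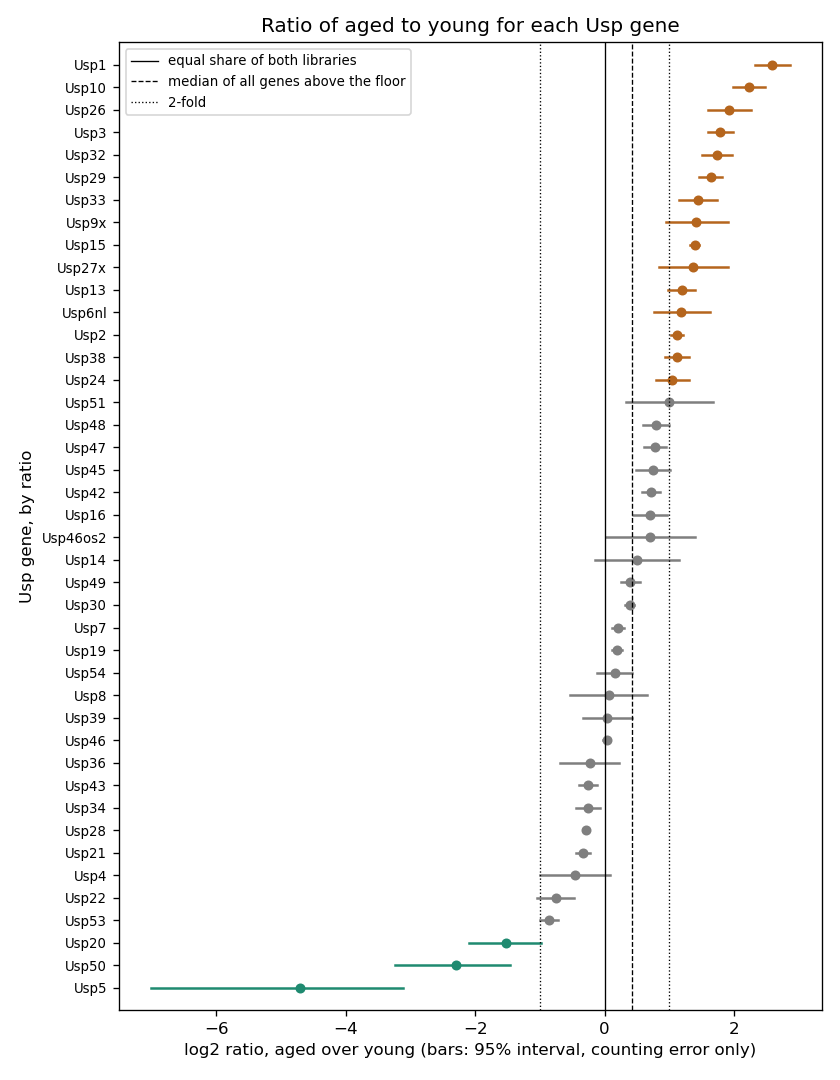
Each point is the log2 ratio of aged over young (horizontal axis) of 1 of the 42 Usp genes above the floor, with its 95% counting interval as a bar; brown marks genes 2-fold higher or more and green genes 2-fold lower or more. The points run from Usp1 at 2.59 to Usp5 at −4.71, and the dashed line is the median of all genes, at 0.43.

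Of the 4 signalling members above the floor 3 were called higher, against 27.9% of all genes, and their median was 1.12. When set against the median gene 0 of 4 were, with Usp9x at 1.99-fold, Usp2 at 1.61-fold and Usp38 at 1.61-fold. Usp2, known from the circadian clock, was the most abundant of them per kb and had 76.5 CPM young and 166 CPM aged, 2.17-fold higher (2.04 to 2.31). Usp9x, a large enzyme of many substrates, was 2.67-fold (1.93 to 3.74) and Usp38 2.17-fold (1.91 to 2.46) higher. Usp34, which acts in Wnt signalling and has a very long transcript, was 1.19-fold lower at 28.9 and 24.2 CPM. On the scale of like length and GC content Usp34 was among the 6 lower members, with a log2 ratio of −1.31. Usp2 was among the 4 higher members on that scale, at 1.05, while Usp9x had 0.37 and Usp38 0.40.

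Germline and sex-linked members above the floor numbered 5, and 4 were called higher, against 27.9% of all genes, with a median of 1.42. The X-linked Usp26, known mainly from testis, had 4.93 CPM young and 18.7 CPM aged, 3.80-fold higher (3.02 to 4.81). Usp29, an imprinted gene beside Peg3, had 17.3 and 53.9 CPM, 3.12-fold higher (2.75 to 3.54). Usp9x, Usp27x and Usp51, given above, make up the rest. Of the group, Usp26 and Usp29 were also 2-fold higher or more relative to the median gene. On the X chromosome the 4 members above the floor, all of this group, had ratios above 0, with a median of 1.39, and 3 were called higher. Of all 340 X-linked genes above the floor 40.0% were called higher, with a median of 0.76. Usp26, Usp29, Usp27x and Usp51 have 1 coding exon in the annotation, and their median was 1.50. For the 419 genes of that kind above the floor the median was 0.56, and 35.1% were called higher.

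Splicing is the role of Usp4, Usp15 and Usp39, of which Usp15 alone was called higher. Usp15, which also acts in TGF-beta signalling, had 2396 counts young and 6018 aged, 123 and 324 CPM, 2.63-fold higher (2.51 to 2.76). Its fold relative to the median gene was 1.96, just short of 2. Usp4, with 73 and 51 counts, and Usp39, with 118 and 116, had intervals that included equality. Mitochondrial and ER members were near equality, apart from Usp33. Usp30, an enzyme of the outer mitochondrial membrane that counters mitophagy, had 184 CPM young and 241 CPM aged, 1.31-fold higher (1.25 to 1.37), and Usp19, anchored in the ER, was 1.14-fold higher.

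Of 5 members listed here as a group without catalytic activity, 1 was called higher, Usp6nl, and 1 lower, Usp50. Activity was not measured, and neither the listing nor a missing cysteine box shows that it is absent. Usp50, whose cysteine box did match, had 72 and 14 counts and was 4.91-fold lower (2.75 to 9.43). The annotated spans of Usp50 and Usp8 overlap on opposite strands. Whether counting used the strand is not stated in the sources used here, so reads in that overlap cannot be told apart. Usp53 had 64.0 CPM young and 35.4 CPM aged, 1.81-fold lower (1.65 to 1.99), and 2.43-fold lower relative to the median gene. Its relative Usp54, with 223 and 238 counts, had an interval that included equality. Of the members with no role assigned, Usp24 was 2.07-fold (1.74 to 2.47) and Usp42 1.65-fold higher, and Usp43 was 1.19-fold lower. The antisense RNA Usp46os2 had 31 and 48 counts, 1.62-fold higher, and Usp46 on the other strand had 4961 and 4838.

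Usp1, Usp10 and Usp3 were 2-fold higher or more on every scale tried, with log2 ratios of 1.65, 2.16 and 1.11 against genes of like length and GC content. Usp26, Usp32, Usp29 and Usp33 were so relative to the median gene but not on the latter scale, where they had 0.83, 0.80, 0.70 and 0.39. The lower members Usp5, Usp50 and Usp20 stayed lower on each of these scales, and Usp53 and Usp22 joined them relative to the median gene. Altogether 24 members lay within 2-fold on library totals, 16 above equality and 8 below, with log2 ratios from −0.86 to 0.99. For 7 of them, Usp4, Usp8, Usp14, Usp36, Usp39, Usp46 and Usp54, the interval included equality.

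Usp28, Usp46 and Usp30 ranked 1, 2 and 3 at both ages in level. Levels of different genes are compared here as CPM per kb of the longest transcript, an approximate scale because cDNA was primed at the poly(A) tail. Usp28 had 105 CPM per kb young and 85.8 CPM per kb aged, and Usp30 had 40.0 and 52.3 CPM per kb. Usp46, a partner of Wdr48, had 53.8 and 54.9 CPM per kb, and the interval of its fold of 1.02 included equality (0.981 to 1.06). Below them the order changed. Usp21 went from rank 4 young to rank 7 aged, Usp2 from rank 7 to rank 4, and Usp5 from rank 31 to rank 42, the last place.

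**Figure D3:**
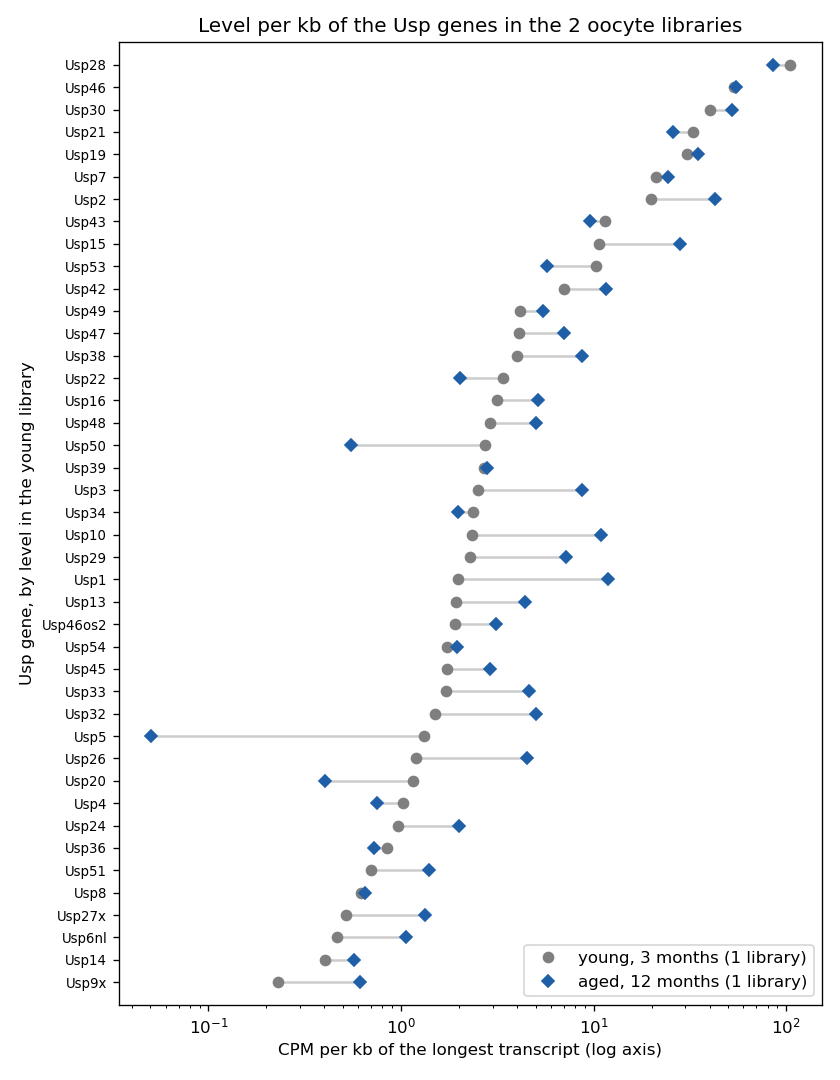
Each row is a Usp gene above the floor, with its level as CPM per kb of transcript (log axis) in the young library as a grey circle and in the aged library as a blue diamond, ordered by the young level. Usp28, Usp46 and Usp30 lead in both libraries, the wide gaps to the right belong to genes such as Usp1 and Usp10, and the widest gap to the left is that of Usp5.

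Another 10 members had counts but lay under the floor, and no fold is given for them. In young and aged, Usp11 had 15 and 9 counts, Usp12 6 and 12, Usp40 6 and 8, Usp31 8 and 0, and Usp46os1 5 and 0. Usp44, known for a role in the spindle checkpoint, had 0 and 9. The remaining 4 were Usp25 with 1 and 4, Usp37 with 1 and 3, Usp17lb with 2 and 1 and Usp17lc with 0 and 4. A last 6 members had no count in either column. They were Usp18, which removes the ubiquitin-like ISG15, the Y-linked Usp9y, Usp35, and Usp17la, Usp17ld and Usp17le of a cluster of near-identical copies on chromosome 7. Reads of such copies can be shared between them.

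Related members differed in some groups. Usp5 and Usp13, close relatives, had log2 ratios of −4.71 (interval −7.01 to −3.11) and 1.19 (0.99 to 1.40). Usp20 and Usp33 had −1.52 (−2.09 to −0.98) and 1.44 (1.16 to 1.74). In both pairs the members lay on opposite sides of equality, and the intervals, which cover counting error only, did not overlap. On the scale of like length and GC content Usp5 and Usp13 had −4.58 and 0.59, and Usp20 and Usp33 −1.50 and 0.39. The quartiles of the log2 ratio over all genes above the floor were −0.28 and 1.09. Pairs of unrelated genes were not compared, so whether relatives differ more or less than other genes was not tested. Usp22, at −0.76, was lower while its X-linked relatives Usp27x and Usp51 were at 1.37 and 0.99. Usp4 and Usp15 had −0.45 and 1.40, Usp53 and Usp54 −0.86 and 0.16, and Usp2 and Usp21 1.12 and −0.33. Other relatives lay close together. Usp16 and Usp45 had 0.70 and 0.75, and Usp26 and Usp29 had 1.92 and 1.64. Usp9x and Usp24 had 1.42 and 1.05. In 5 further pairs 1 relative carried nearly all counts, Usp28 beside Usp25, Usp46 beside Usp12, Usp49 beside Usp44, Usp43 beside Usp31 and Usp38 beside Usp35.

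**Figure D4:**
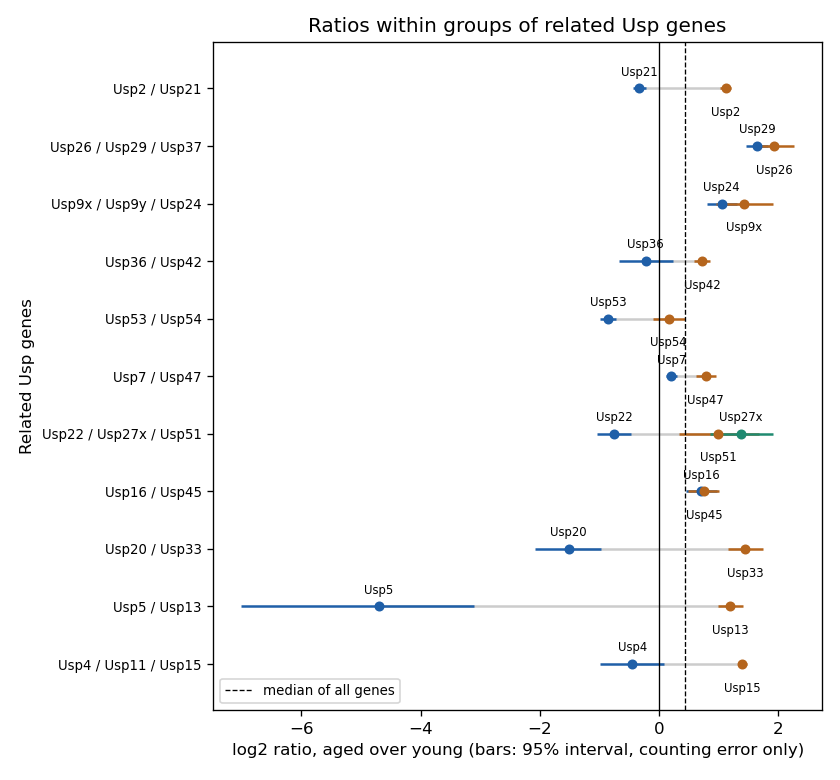
Each row is a group of related Usp genes with at least 2 members above the floor, and each point is a gene's log2 ratio of aged over young (horizontal axis) with its 95% counting interval. The points of Usp5 and Usp13 and of Usp20 and Usp33 lie far apart on opposite sides of 0, and those of Usp16 and Usp45 nearly coincide.

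Base composition moved with the ratio. Across the 42 members, which share the same 2 libraries and are not replicates, Spearman's rho between GC content of the transcript and the log2 ratio was −0.37, and across 9902 genes above the floor it was −0.40. The 14 members with under 45% GC had a median of 1.09 (0.93 for all 2375 such genes). The 16 members with 50% or more had a median of 0.12 (0.06 for all 4803 such genes). Usp10 and Usp53 went against this order. Usp10, at 54.2% GC, was among the highest, and Usp53, at 40.3% GC, among the lowest. The part of base composition in each ratio was not tested beyond the comparison with genes of like length and GC content.

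**Figure D5:**
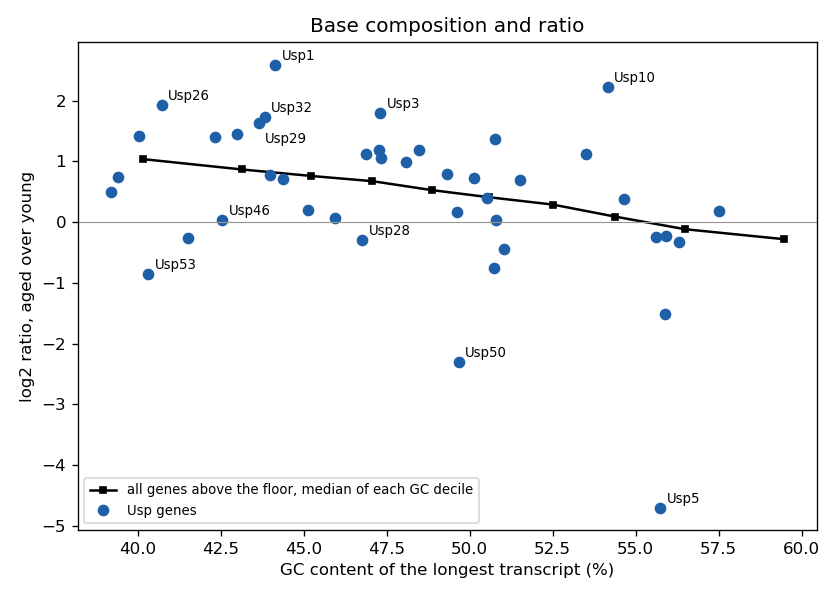
Blue points are Usp genes by GC content of the longest transcript (horizontal axis, %) and log2 ratio of aged over young (vertical axis), and black squares are the medians of all genes above the floor in 10 classes of GC content. The medians go down from 1.04 to −0.28, and Usp10 lies above and Usp53 below the line.

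The other parts of the ubiquitin system gave a frame for these values. Of 33 genes above the floor listed under other deubiquitinase families, 10 were called higher and 1 lower, with a median log2 ratio of 0.49. The 30.3% higher lay near the 27.9% of all genes. The list goes by protein family and not by shown activity. Of the 9 JAMM family genes above the floor, 5 were higher and 0 lower, 55.6% higher against 27.9% of all genes. Relative to the median gene 4 were higher, against 16.0% of all genes. The highest were Eif3h with 12 and 118 counts and Stambpl1 with 12 and 94. Psmd14, of the same family, lay below the floor with 25 and 5 counts. Mindy4 was the 1 lower gene of the 33, 2.15-fold. Uchl1, a ubiquitin hydrolase of another fold, had 1991 CPM young and 1817 CPM aged, 1.10-fold lower. This single gene took 38782 and 33783 counts, where all Usp members together took 36109 and 45088. Among 28 Ube2 genes, which encode conjugating enzymes, 21.4% were higher and 3.57% lower, with a median of 0.36. Among 57 Rnf genes, mostly ligases, 22.8% were higher and 7.02% lower, with a median of 0.19. The 36 Psm genes of the proteasome had 38.9% higher and 11.1% lower, with a median of 0.79, against 27.9% and 10.6% of all genes.

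Of 15 genes for ubiquitin, its relatives and their activating enzymes, 9 were called higher and 2 lower, with a median of 1.13. Over all genes 27.9% were called higher and 10.6% lower. Relative to the median gene 3 of the 15 were higher and 3 lower, against 16.0% and 17.3% of all genes. On the scale of like length and GC content their median was 0.29. The activating enzyme gene Uba1 was 2.18-fold higher, and Uba6, with 19 and 176 counts, 9.70-fold higher. The polyubiquitin gene Ubb was 1.40-fold higher. Of 27 partners and regulators of Usp enzymes, 10 were higher and 2 lower, with a median of 0.52. These are 37.0% and 7.41%, against 27.9% and 10.6% of all genes. Relative to the median gene 4 of the 27 were higher and 3 lower, against 16.0% and 17.3% of all genes. On the scale of like length and GC content their median was 0. For Usp1, its activator Wdr48 had 18 and 24 counts, its target Pcna was 3.39-fold higher and its target Fancd2 1.37-fold lower. Eny2, which activates Usp22 within SAGA, was 4.25-fold higher, opposite to Usp22, and Atxn7l3, another subunit of that module, had 1 and 3 counts. G3bp1, which binds Usp10, was 2.36-fold higher, and Psmd2, of the proteasome base on which Usp14 docks, 2.45-fold higher. The splicing factor Prpf8 was 3.42-fold lower and Hgs, of the endosomal sorting complex, 2.34-fold lower.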

How the data were processed

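Whole-number counts per Ensembl gene and library, unnormalized, are as deposited by the authors, with mm9 as genome build per the submitters' processing notes. The aligner, counting program, annotation and use of strand are not stated in the sources used here. The authors' deposited log2 fold changes (young over aged), z score, p-value and q-value columns rest on 1 library per age as well. The scaled log2 values of all 42 members above the floor matched the recomputed ones within 1e-06, and nothing else was used from these columns. Genes were scaled to library totals (CPM) and kept at a mean of at least 20 counts. With 1 library per age genes are described by a 2-fold rule. A library at 0 counts entered a ratio with 3 counts. Symbols, transcript lengths and GC content came from GENCODE mouse release 21, which does not describe mm9, and coordinates are therefore left out. Symbols were found for 85.5% of rows, and lengths for all 42 members and 97.0% of genes above the floor. Every row has a gene ID. Cysteine boxes are shown as coding sequence of that release, since no protein table was used here.

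All members are named, with fuller values for those past 2-fold on library totals or relative to the median gene, the most abundant per kb and those nearest equality, and for other lists up to 3 members furthest from the median gene plus partners of the named members. The members and lists were chosen with earlier results of these data known. The interval calculation was tested on simulated data. The tools were matplotlib 3.10.9, pandas 2.3.3, scipy 1.17.1 and numpy 2.4.6 in Python 3.11.15, with TMM factors of 0.878 (young) and 1.14 (aged) from edgeR 4.0.16 in R 4.3.3. Reads without molecular identifiers are not independent molecules, so intervals and floors cover counting error only. Alternatives were other scalings, floors, 5 added counts, ratios reduced by the median of 10 by 10 bins of length and GC content, and sets without doubtful members. Single values of some listed ubiquitin genes are not reported here.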

Additional observations from a re-analysis of the deposited data

How the results depend on the processing

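No paired analysis was possible because each age has 1 library. On library totals 15 of the 42 members reached 2-fold higher and 3 reached 2-fold lower, with a median log2 ratio of 0.70. Over all genes the shares were 27.9% and 10.6%. With TMM factors there were 9 and 5 members, against 1757 and 1668 of the 10211 genes above the floor. Relative to the median gene there were 7 and 5 (16.0% and 17.3% of all genes), with a median of 0.28. Against genes of like length and GC content there were 4 and 6 (13.6% and 14.9% of all genes), with a median of 0.15. Totals without the 100 most abundant genes gave 10 higher and 5 lower, against 1991 and 1489 of the 10211 genes. These scalings move all genes, whose median was 0.43 on totals, 0.05 with TMM and 0.14 without the 100 genes. With a floor of 100 counts 0 of 31 members were lower, against 496 of 6711 genes, since Usp5, Usp50 and Usp20 then dropped out. Over totals without the 100 genes the family took 0.374% of the young and 0.401% of the aged library. The direction of the median stayed in all of these. Of the 18 members past 2-fold, 12 stayed so with TMM, 10 relative to the median gene and 7 against genes of like length and GC content. The floor of 100 kept 13 of them. No member past 2-fold reversed direction. A floor changes no ratio, 5 added counts pull ratios toward equality, and shifting all ratios by less than 2-fold cannot reverse such a member. The unchanged directions are therefore informative only on the scale of like length and GC content. Counts and median moved little with no floor, 5 added counts, or without Usp6nl and Usp39 or the Usp17l genes. The same held in 2 sets chosen after seeing the data, without the antisense RNAs and without the 9 members that overlap a gene above the floor. Usp5, with 5 counts added to each library, had a log2 ratio of −3.38. Depth limits members such as Usp14 and Usp8 to differences above about their intervals, and without replicates no spread between females is known.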

Other observations

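Stored oocyte mRNAs can carry a cytoplasmic polyadenylation element near the 3′ end, which the embryo and oocyte use to lengthen the poly(A) tail. The letters TTTTAT or TTTTAAT, on the transcript strand, were looked for in the last 100 bases of the annotated 3′ end, a search chosen after the data were seen. They were present in 3 of 39 Usp members above the floor with a 3′ UTR of that length (7.69%) and in 20.9% of 8900 genes above the floor. The 3 members were Usp28, Usp22 and Usp47, with log2 ratios of −0.29, −0.76 and 0.78. Over all genes the median was 0.38 with the letters and 0.46 without. In Usp28 and Usp22 they lay near the cleavage signal aataaa, and the site is shown with the element in capitals.
Usp28: TTTTATaaatgtgcaataaa
Usp22: aataaagctgcaTTTTAT
A match is a description of these letters in the annotated transcript, and the 3′ ends used in ICR oocytes were not measured here.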
